A study of Mus musculus with 6 samples.

Results

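The genes of the amyloid precursor protein and of the enzymes that cut it were followed in the adult brain of mice without Bahd1, a chromatin protein that helps to form repressive heterochromatin. The 9 genes were App with its homologues Aplp1 and Aplp2, the γ-secretase genes Psen2, Psenen, Ncstn and Aph1a, the β-secretase gene Bace1 and the α-secretase gene Adam10. They were taken by gene name from a table of 53801 genes, and all 9 passed the filter on low counts that left 23975 genes for testing. RNA-seq compared a hemisphere of 3 Bahd1-WT mice (Bahd1+/+) with that of 3 Bahd1-KO mice (Bahd1-/-), all adult C57BL/6 animals, aged 70 weeks per the labels, with no further treatment named. The inactivation of Bahd1 is constitutive and affects every tissue, and many Bahd1-KO pups die around birth, so that the adults studied are survivors. The samples of each genotype are different animals.

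App encodes a membrane protein abundant in neurons. When β-secretase and then γ-secretase cut it, the amyloid-β peptide is set free, whereas a cut by α-secretase falls inside the peptide and prevents its formation. γ-secretase is a complex of a presenilin, which is the catalytic subunit, with nicastrin, an Aph1 protein and Pen-2. Aplp1 and Aplp2 are cut by the same enzymes but lack the amyloid-β sequence. RNA levels are measured here, and neither the proteins nor their cleavage.

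All 9 genes are protein-coding in the GRCm38 annotation. App lies at chr16:84949685-85173766, Aplp1 at chr7:30434982-30445535 and Aplp2 at chr9:31149557-31211815, all on the minus strand. Psen2 at chr1:180227004-180263438, Psenen at chr7:30561863-30563627 and Ncstn at chr1:172066013-172082795 are on the minus strand too. Aph1a at chr3:95893969-95898288, Bace1 at chr9:45838580-45864399 and Adam10 at chr9:70678997-70780229 are on the plus strand. Aplp1 and Psenen are close to each other on chromosome 7. Exons of Bace1, Aph1a, Psenen, Ncstn and App overlap genes of the opposite strand over 15.4% (Rnf214), 12.9% (Car14), 9.33% (U2af1l4), 4.91% (Copa) and 0.87% (Gm49227) of their merged exon length, and the study stated that reads were counted by strand.

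The promoters of App, Aplp1, Psen2 and Adam10 are shown as examples of a precursor, a homologue, a γ-secretase subunit and an α-secretase whose samples did not overlap between the genotypes, in Adam10 in the other direction than in the rest. They were chosen after the values were seen, and the windows of Ncstn and Psenen, which did not overlap either, are given by their composition. Each is the 250 bases before a RefSeq start, from RefSeq on GRCm38.p6, written 5′ to 3′ on the strand of the gene. The capitals mark the GC box, spelled GGGCGG or, for the other strand, CCGCCC, and overlapping matches run together.
App promoter, chr16:85173708-85173957, strand -: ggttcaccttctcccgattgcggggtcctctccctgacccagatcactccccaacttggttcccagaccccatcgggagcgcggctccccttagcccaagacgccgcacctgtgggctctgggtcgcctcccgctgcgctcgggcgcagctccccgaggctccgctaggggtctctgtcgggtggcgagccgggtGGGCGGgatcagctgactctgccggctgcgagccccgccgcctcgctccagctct
Aplp1 promoter, chr7:30445583-30445832, strand -: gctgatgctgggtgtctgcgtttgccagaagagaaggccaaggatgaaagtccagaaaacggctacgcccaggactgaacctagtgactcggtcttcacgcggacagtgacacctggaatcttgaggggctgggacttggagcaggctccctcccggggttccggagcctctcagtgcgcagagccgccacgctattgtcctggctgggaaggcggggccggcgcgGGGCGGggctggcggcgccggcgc
Psen2 promoter, chr1:180256301-180256550, strand -: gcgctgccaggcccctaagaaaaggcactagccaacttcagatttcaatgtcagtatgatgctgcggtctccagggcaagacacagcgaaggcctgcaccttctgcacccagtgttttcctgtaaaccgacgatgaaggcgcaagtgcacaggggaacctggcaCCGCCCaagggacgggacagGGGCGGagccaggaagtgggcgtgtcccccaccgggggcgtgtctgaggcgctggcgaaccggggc
Adam10 promoter, chr9:70678732-70678981, strand +: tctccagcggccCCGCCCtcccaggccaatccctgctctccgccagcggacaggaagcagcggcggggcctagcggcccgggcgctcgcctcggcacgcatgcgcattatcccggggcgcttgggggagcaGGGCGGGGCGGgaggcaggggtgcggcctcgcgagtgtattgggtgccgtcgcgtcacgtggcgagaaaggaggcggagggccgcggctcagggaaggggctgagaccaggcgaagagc
Bases G and C make up 70.8% of the App window, 66.0% of the Aplp1 window, 62.8% of this Psen2 window and 74.0% of the Adam10 window, against a median of 52.4% over 32851 promoters of this length. The windows hold 23, 20, 15 and 29 CpG dinucleotides in the same order, where the median promoter has 6. A GC box was found in 32.7% of all promoters and in 6 of the 10 member promoters, which belong to 8 of the 9 genes. TATAAA, searched on both strands, was in 12.4% of all promoters and in 0 of the 10. Another Psen2 window, at chr1:180245951-180246200, has 44.8% GC, 7 CpG dinucleotides and 0 GC boxes. The Ncstn window has 63.2% GC and the 2 Psenen windows have 55.6% and 58.4%, each with 0 GC boxes.

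The 6 libraries held 42297150 to 93557948 counts. At this depth 3 counts correspond to 0.0321 to 0.0709 CPM, where CPM are counts scaled to library size with TMM factors, and every one of the 9 genes had at least 206 counts in every library. The targeted gene, Bahd1, was read 1383, 844 and 1099 times in Bahd1-WT replicates 1, 2 and 3 and 0, 14 and 1 times in Bahd1-KO replicates 1, 2 and 3. Log2 fold changes of the 13259 expressed genes (mean log2 CPM above 1) followed the GC content of their transcripts, with a Spearman correlation of 0.862 across genes, which are not independent. For the decile of these genes richest in GC, the median deviation from the mean of all libraries was taken on the log2 scale. It was -0.37, -0.90 and -0.64 in Bahd1-WT replicates 1, 2 and 3. In Bahd1-KO replicates 1, 2 and 3 it was -0.04, 1.44 and 0.53, without overlap between the genotypes. The GC trend and the genotype therefore cannot be told apart here, and a correction for the trend may remove or add a genotype difference. The tests of the 9 genes and the values of the named list genes are therefore also given with a GC and length offset, a correction in each library by a smooth fit of log2 CPM on transcript GC content and gene length. With it, the correlation with GC content was -0.018, which is near 0 by construction, since the fit was made on these genes.

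The genes were measured at very different levels, which can be compared between genes only per length. In Bahd1-WT brains App was at 351 FPKM (CPM per kilobase of the principal transcript), Aplp2 at 197 and Aplp1 at 153. Adam10 followed at 36.3 FPKM, Bace1 at 17.0 and Ncstn at 13.5. Psenen at 5.29 and Aph1a at 4.84 FPKM overlapped in range, and Psen2 was lowest at 2.32. The genes of the substrates were thus higher than those of the enzymes in each Bahd1-WT sample, by this length or any other tried. The order within the App family, in contrast, depended on the length. Per kilobase of merged exons, which is 12996 bases for App against 3176 bases in its principal transcript, App was last of the family in Bahd1-WT at 85.8 FPKM, after Aplp2 at 122 and Aplp1 at 119, whose ranges overlapped. In Bahd1-KO brains App (461 FPKM of the principal transcript) and Aplp1 (331 FPKM) overlapped in range, as did Aplp1 and Aplp2 (210 FPKM).

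**Figure D1:**
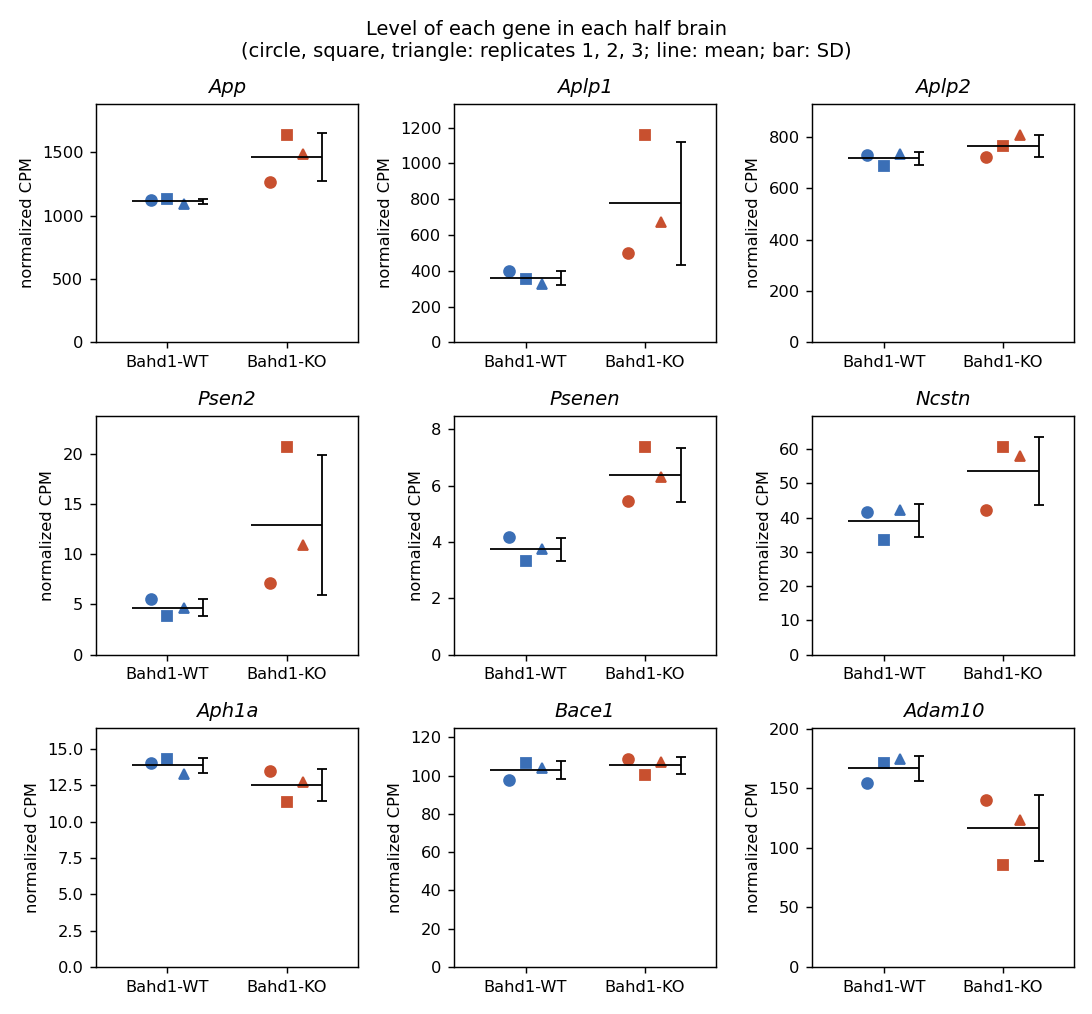
Normalized CPM (vertical axis, from 0) of the 9 genes in each hemisphere, with Bahd1-WT in blue and Bahd1-KO in red. Circles, squares and triangles are replicates 1, 2 and 3, the line is the mean and the bar the SD (n = 3). App, Aplp1, Psen2, Psenen and Ncstn lie above Bahd1-WT in all 3 Bahd1-KO samples, Adam10 lies below, and Aplp2, Aph1a and Bace1 overlap.

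The first question was whether the RNA of the precursor family and its secretases differed between the genotypes. By edgeR's quasi-likelihood test with Benjamini-Hochberg adjustment over all genes, an adjusted p under 0.05 was reached by 0 of the 9 genes and by 0.00834% of all genes tested. Aplp1, Psen2 and Psenen, all higher in Bahd1-KO, had an adjusted p under 0.1, where 14.7% of all genes were called higher and 19.5% in either direction. An unadjusted p under 0.05 was found for 6 genes (App, Aplp1, Psen2, Psenen, Ncstn and Adam10), where 31.8% of all genes had one. These 6 are also the genes whose samples did not overlap between the genotypes, which held for 39.8% of all genes. Adam10 had Bahd1-KO below Bahd1-WT, as 19.3% of all genes did, and the other 5 had Bahd1-KO above, as 20.6% did. DESeq2, the tool of the study, run here as a Wald test with a normal prior, called Aplp1, Psen2 and Psenen higher at an adjusted p under 0.05, where 17.7% of the genes with an adjusted p were called higher and 21.3% in either direction. The study also asked for a 2-fold change, which left Aplp1 and Psen2, where 11.9% of these genes were called higher and 13.1% in either direction. At an adjusted p under 0.05 alone, edgeR with total counts in place of TMM factors called Aplp1, Psen2 and Psenen (9.40% of all genes, 8.83% higher). Its likelihood-ratio test called the same 3 genes (17.0%, 13.6% higher), and a filter of at least 1 count left Aplp1 and Psen2 (11.0%, 9.39% higher). Once corrected by the offset, edgeR called 0 of the 9 at an adjusted p under 0.05 (0.0167% of all genes), App and Psen2 higher at an adjusted p under 0.1 (3.57% of all genes), and App, Psen2 and Aph1a at an unadjusted p under 0.05 (21.4%). By the principal transcript the offset gave 0 of the 9 at an adjusted p under 0.1 and 6 at an unadjusted p under 0.05 (App, Aplp2, Psen2 and Ncstn higher, Aplp1 and Aph1a lower), where 4.87% and 20.7% of all genes had one. The calls among the 9 genes therefore depended on the tool and the correction.

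App was at 1119.9, 1132 and 1093 CPM in Bahd1-WT replicates 1, 2 and 3 and at 1264, 1639 and 1491 CPM in Bahd1-KO replicates 1, 2 and 3. Every Bahd1-KO sample was higher than every Bahd1-WT sample, and the Bahd1-WT samples were close to each other, with a mean of 1115 ± 20.2 CPM (SD, n = 3) against 1465 ± 189 CPM in Bahd1-KO. The log2 fold change was 0.39 (standard error 0.15, 95% interval 0.04 to 0.75), with an adjusted p of 0.126 in edgeR's quasi-likelihood test. App is the member whose value depends most on how its transcript is described. Its longest transcript has a GC content of 46.1%, and expressed genes within 1 percentage point of it had a median log2 fold change of -0.26, with App at percentile 97.3 among them. Its principal transcript has 51.4% GC, and there the median was 0.13 and App was at percentile 82.2. Accordingly, the log2 fold change with the offset was 0.68 (standard error 0.15, edgeR adjusted p = 0.0788) by the longest transcript and 0.29 (standard error 0.095, edgeR adjusted p = 0.133) by the principal transcript. App stayed higher in Bahd1-KO under all of these.

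Aplp1, the homologue expressed mainly in neurons, was at 400.001, 354 and 325 CPM in the Bahd1-WT samples and at 498, 1159.7 and 672 CPM in Bahd1-KO replicates 1, 2 and 3. The genotypes did not overlap, and Bahd1-KO replicate 2 was far above the other Bahd1-KO samples. The mean was 359.5 ± 37.9 CPM (SD, n = 3) in Bahd1-WT and 776 ± 343 CPM in Bahd1-KO, a log2 fold change of 1.11 (standard error 0.29, edgeR adjusted p = 0.0641). Without Bahd1-KO replicate 2 this value was 0.70 (edgeR adjusted p = 0.0561). Aplp1 has the highest GC content of the 9 genes (59.4%), and expressed genes of like GC content had a median log2 fold change of 1.36, above that of Aplp1. With the offset the direction turned, to -0.22 (standard error 0.12, edgeR adjusted p = 0.319). The direction of the Aplp1 difference thus depended on the offset.

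Aplp2, the homologue found in nearly all tissues, was at 729, 687 and 733 CPM in Bahd1-WT and at 721, 764 and 808 CPM in Bahd1-KO. The samples overlapped, and the log2 fold change was 0.09 (95% interval -0.22 to 0.41), with an adjusted p of 0.662 in edgeR's quasi-likelihood test. This interval leaves room for a change of either sign, up to 0.41 on the log2 scale. The value was 0.16 without Bahd1-KO replicate 1 and 0.06 without Bahd1-WT replicate 2 or Bahd1-KO replicate 3. With the offset the value was 0.16 (standard error 0.09, edgeR adjusted p = 0.329).

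Among the subunits of γ-secretase, Psen2 had the largest log2 fold change of the 9 genes without the offset, while with it by the longest transcript App was slightly above. Psen2 encodes a presenilin, the catalytic subunit. It was at 5.53, 3.89 and 4.62 CPM in Bahd1-WT and at 7.15, 20.7 and 10.9 CPM in Bahd1-KO replicates 1, 2 and 3, from 240 to 506 and from 311 to 1967 counts. All Bahd1-KO samples were above all Bahd1-WT samples, and replicate 2 was again the highest. The mean of 4.68 ± 0.82 CPM (SD, n = 3) against 12.9 ± 6.97 CPM gave a log2 fold change of 1.47 (standard error 0.37, 95% interval 0.62 to 2.31, edgeR adjusted p = 0.0634), or 2.76-fold. Without Bahd1-KO replicate 2 it was 0.95 (edgeR adjusted p = 0.0641). Expressed genes of like GC content (55.1%) had a median of 0.68, with Psen2 at percentile 93.7 among them. With the offset the log2 fold change was 0.66 (standard error 0.19, edgeR adjusted p = 0.0993) by the longest transcript and 0.69 (standard error 0.19, edgeR adjusted p = 0.104) by the principal transcript, and 0.44 without Bahd1-KO replicate 2 (edgeR adjusted p = 0.266). Psen2 was higher in Bahd1-KO under each of these edgeR quasi-likelihood settings, without reaching an adjusted p under 0.05 in any of them. Other settings did reach it. DESeq2 with its normal prior gave an adjusted p of 0.00144 without the offset and 0.0148 with it. In edgeR's quasi-likelihood test without Bahd1-KO replicate 1 and without the offset it was 0.00553.

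Psenen, which encodes Pen-2, the smallest subunit, was at 4.16, 3.34 and 3.74 CPM in Bahd1-WT and at 5.45, 7.37 and 6.30 CPM in Bahd1-KO. The genotypes did not overlap, and the log2 fold change was 0.77 (standard error 0.22, edgeR adjusted p = 0.0672). Genes of like GC content (53.8%) had a median of 0.50, and with the offset the value was 0.15 (standard error 0.15, edgeR adjusted p = 0.618), with 0.25 without Bahd1-KO replicate 2 and 0.06 without Bahd1-KO replicate 3. Ncstn encodes nicastrin, the subunit that binds substrates. It was at 41.6, 33.6 and 42.352 CPM in Bahd1-WT and at 42.382, 60.6 and 58.0 CPM in Bahd1-KO, so that the genotypes were separated only by the last digits given for Bahd1-WT replicate 3 and Bahd1-KO replicate 1. Its log2 fold change was 0.45 (standard error 0.19, edgeR adjusted p = 0.145) and 0.23 with the offset (standard error 0.12, edgeR adjusted p = 0.327), which was 0.14 without Bahd1-KO replicate 3.

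Aph1a, a scaffold subunit, showed another pattern. It was at 14.0, 14.3 and 13.3 CPM in Bahd1-WT and at 13.5, 11.4 and 12.7 CPM in Bahd1-KO, with overlapping samples. The log2 fold change was -0.15 (standard error 0.17, 95% interval -0.54 to 0.25), with an adjusted p of 0.577 in edgeR's quasi-likelihood test, and it was -0.08 without Bahd1-KO replicate 2. Most expressed genes of its GC content (53.7%) were higher in Bahd1-KO, with a median of 0.48, and Aph1a was at percentile 4.24 among them. With the offset the value was -0.64 (standard error 0.19, unadjusted p = 0.00864, edgeR adjusted p = 0.112). DESeq2 with the offset called Aph1a lower (adjusted p = 0.0213) and App and Psen2 higher (adjusted p = 0.00196 and 0.0148), where 12.2% of the genes with an adjusted p were called, 6.96% higher and 5.20% lower. A difference in Aph1a that was within the spread of the samples as deposited was thus called by this tool once the libraries were corrected for GC content, whereas edgeR with the offset called it in the fit without Bahd1-KO replicate 1 (adjusted p = 0.0223) and not over all 6 libraries.

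The enzymes that make the first cut in the precursor are the β- and α-secretases. Bace1, the β-secretase of the brain, was at 98.0, 107 and 104 CPM in Bahd1-WT and at 109, 100.4 and 107 CPM in Bahd1-KO, with overlapping samples. Its log2 fold change was 0.03 (standard error 0.14, 95% interval -0.28 to 0.35, edgeR adjusted p = 0.883), and -0.02 with the offset (standard error 0.10, edgeR adjusted p = 0.945). Its GC content of 50.0% is near the median of 49.3% of expressed genes. Adam10, the main α-secretase of neurons, was at 154, 171 and 174 CPM in Bahd1-WT and at 141, 85.7 and 124 CPM in Bahd1-KO. It was the only one of the 9 genes with every Bahd1-KO sample below every Bahd1-WT sample. The log2 fold change was -0.51 (standard error 0.20, 95% interval -0.97 to -0.06, edgeR adjusted p = 0.121), and -0.34 without Bahd1-KO replicate 2 (edgeR adjusted p = 0.158). Adam10 also had the lowest GC content of the 9 genes (42.1%), and expressed genes of like GC content had a median of -0.44. With the offset the value was -0.10 (standard error 0.09, edgeR adjusted p = 0.595), and -0.03 by the principal transcript. The offset value of -0.10 moved to -0.05 without Bahd1-WT replicate 3 or Bahd1-KO replicate 2 and to -0.15 without Bahd1-KO replicate 3.

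**Figure D2:**
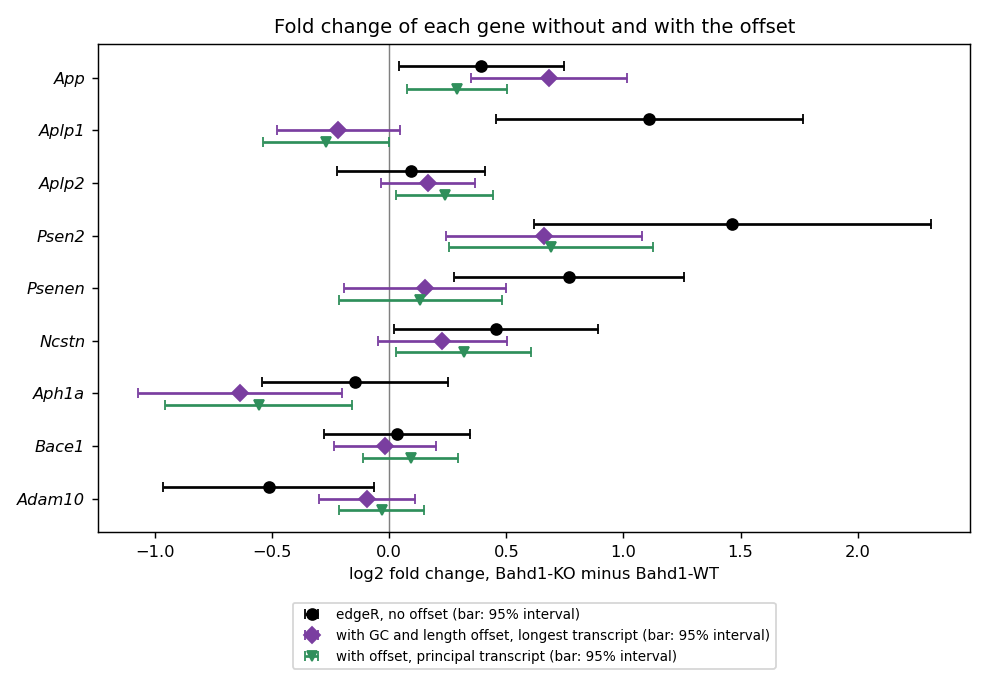
Log2 fold change, Bahd1-KO minus Bahd1-WT (horizontal axis), of the 9 genes in edgeR without an offset (black), with the GC and length offset by the longest transcript (purple) and by the principal transcript (green), with 95% intervals. App and Psen2 stay to the right of 0 in all 3 fits, Aplp1 moves from 1.11 to -0.22 and -0.27, and Aph1a moves from -0.15 to -0.64 and -0.56.

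The 9 log2 fold changes followed GC content like those of the whole table. Across the 9 genes, which share the same 6 libraries, the Spearman correlation of log2 fold change with GC content was 0.75 and Pearson's r was 0.74, and with the offset the Spearman correlation was -0.20. The distance of Bahd1-KO replicate 2 from the mean of the other Bahd1-KO samples was largest for Psen2 (1.22 on the log2 scale) and Aplp1 (1.00), and for Adam10 in the other direction (-0.62). It was 0.33 for Psenen, 0.29 for Ncstn, 0.26 for App, 0.00 for Aplp2, -0.11 for Bace1 and -0.21 for Aph1a. Without Bahd1-KO replicate 2, edgeR called 0 of the 9 genes at an adjusted p under 0.05, where 0.0174% of all genes tested were. Leaving out Bahd1-KO replicate 1, the library least different from Bahd1-WT, gave 6 calls among the 9 (App, Aplp1, Psen2, Psenen and Ncstn higher, Adam10 lower), where 30.0% of all genes were called, and with the offset 3 calls (App and Psen2 higher, Aph1a lower), where 10.7% were.

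**Figure D3:**
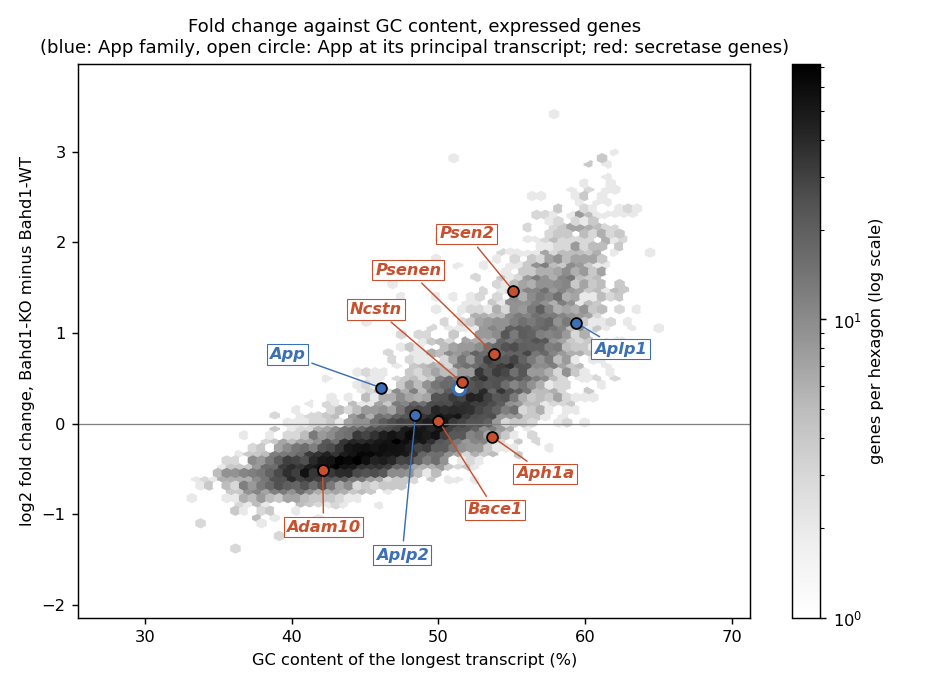
GC content of the longest transcript in percent (horizontal axis) against the log2 fold change without an offset (vertical axis), with expressed genes as hexagons shaded by their number on a log scale. The App family is marked in blue and the secretase genes in red, and the open circle is App at the GC content of its principal transcript. Adam10, Bace1, Aplp2, Ncstn and Psenen lie within the band of all genes, App and Psen2 lie at its upper side, and Aph1a lies at its lower side.

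Ratios between genes within a sample do not depend on the scaling of the libraries. The share of App in the summed FPKM of the family (per kilobase of merged exons) was 25.1, 27.1 and 26.6% in Bahd1-WT and 25.3, 19.7 and 24.2% in Bahd1-KO. The mean difference was -3.23 percentage points (two-sided exact permutation p = 0.2). Per kilobase of the principal transcript the share was 48.7, 51.2 and 50.3% in Bahd1-WT and 49.2, 42.2 and 48.0% in Bahd1-KO, with a difference of -3.57 points (exact permutation p = 0.2), or -1.46 points without Bahd1-KO replicate 2. Per kilobase of merged exons, Aplp1 made up 38.7, 36.5 and 34.0% of the family in Bahd1-WT and 42.9, 60.0 and 46.9% in Bahd1-KO. The log2 ratio of Aplp1 to App differed by 0.64 without overlap of the samples (exact permutation p = 0.1). Bace1 relative to Adam10 was at log2 ratios of -1.03, -1.05 and -1.11 in Bahd1-WT and -0.74, -0.14 and -0.57 in Bahd1-KO, so that all Bahd1-KO samples had more Bace1 RNA per Adam10 RNA, by 0.58 in the mean (exact permutation p = 0.1). Psen2 relative to Psenen was at -1.36, -1.54 and -1.46 in Bahd1-WT and -1.37, -0.28 and -0.97 in Bahd1-KO, with overlapping samples and a difference of 0.58 (exact permutation p = 0.2). Without Bahd1-KO replicate 2 the differences were -1.56 points for the App share, 0.39 for Aplp1 to App, 0.40 for Bace1 to Adam10 and 0.28 for Psen2 to Psenen. With 3 samples against 3, 0.1 is the smallest p the 20 possible splits allow, and the adjusted p over the 4 ratios was 0.2 for each.

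With the GC and length offset by the longest transcript the ratios within the family turned. Per kilobase of merged exons, App then made up 21.0, 19.4 and 21.2% of the family in Bahd1-WT and 26.3, 35.7 and 27.7% in Bahd1-KO, a mean difference of 9.33 percentage points (exact permutation p = 0.1), and the log2 ratio of Aplp1 to App differed by -0.87 (exact permutation p = 0.1). The ratio of Bace1 to Adam10 then overlapped between the genotypes, with a difference of 0.08 (exact permutation p = 0.5). Psen2 relative to Psenen was at -1.37, -1.45 and -1.38 in Bahd1-WT and -1.23, -0.36 and -1.18 in Bahd1-KO, with a difference of 0.48 (exact permutation p = 0.1). Without Bahd1-KO replicate 2, the highest, this difference was 0.20. With the offset by the principal transcript the differences were 4.42 points for the App share, from 23.2, 22.1 and 22.7% in Bahd1-WT to 25.0, 29.2 and 27.1% in Bahd1-KO, and -0.55 for Aplp1 to App (exact permutation p = 0.1 each), less than by the longest transcript, and 0.12 for Bace1 to Adam10 and 0.52 for Psen2 to Psenen (exact permutation p = 0.2 and 0.1). The last was 0.24 without Bahd1-KO replicate 2. Of the 4 ratios, the direction held for Bace1 to Adam10 and Psen2 to Psenen under either offset.

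**Figure D4:**
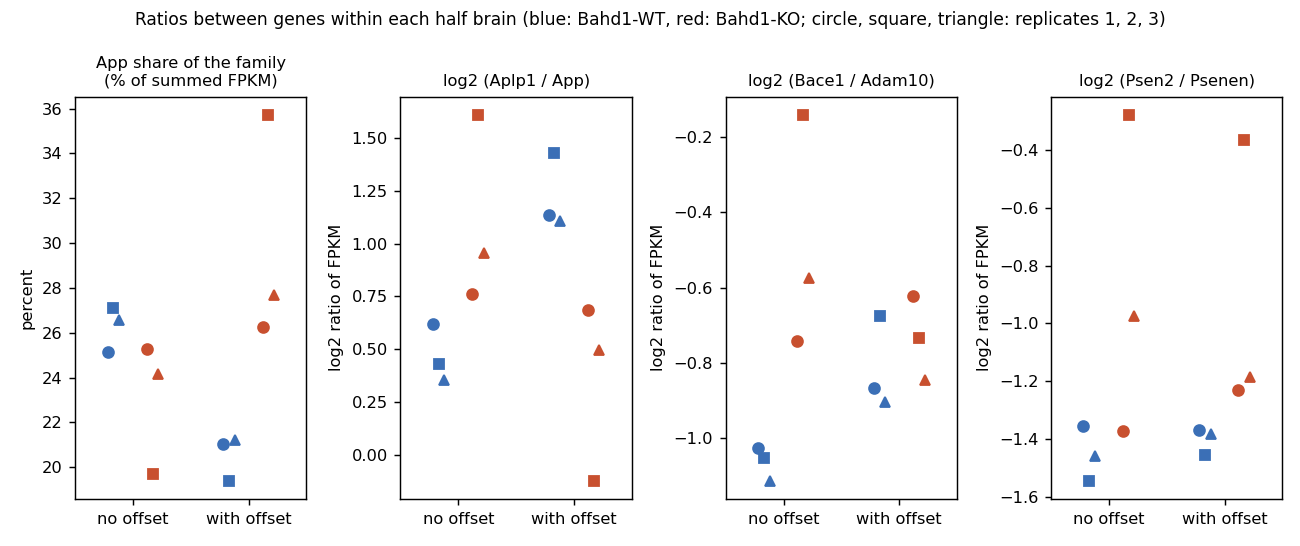
The 4 ratios within each hemisphere, without and with the GC and length offset (horizontal axis), as percent of summed FPKM for App and as log2 ratios of FPKM for the others (vertical axes, which do not start at 0). Bahd1-WT is blue, Bahd1-KO red, and circles, squares and triangles are replicates 1, 2 and 3. The mean difference of the App share, Bahd1-KO minus Bahd1-WT, is -3.23 points without the offset and 9.33 points with it.

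γ-secretase takes alternative Aph1 subunits, so Aph1a was set beside the other Aph1 genes, a comparison chosen after the values were seen and given as a description. Aph1b, at 12.9 ± 1.03 FPKM of the principal transcript (SD, n = 3) in Bahd1-WT and 8.83 ± 2.41 FPKM in Bahd1-KO, was the most abundant of the Aph1 genes, and Aph1c was at 2.40 ± 0.086 and 1.84 ± 0.30 FPKM. Their log2 fold changes were -0.55 and -0.39 (edgeR adjusted p = 0.132 and 0.203). Aph1b and Aph1c are near-identical copies, between which reads may be split. With the offset the log2 fold changes of Aph1b and Aph1c were -0.18 and -0.07 (edgeR adjusted p = 0.368 and 0.790). The share of Aph1a among the Aph1 genes was 25.0, 23.2 and 24.1% in Bahd1-WT and 26.8, 34.1 and 27.9% in Bahd1-KO, higher in each Bahd1-KO sample. With the offset it was lower in each Bahd1-KO sample, at 29.1, 32.1 and 29.6% in Bahd1-WT and 27.4, 20.1 and 23.3% in Bahd1-KO. By the principal transcript it was lower in each as well, at 29.2, 31.6 and 29.2% against 27.0, 20.4 and 23.9%.

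The wider amyloid pathway was read from 6 lists of other secretases, secretase regulators, App adaptors, sorting and trafficking genes, peptide clearance genes and other secretase substrates, of which 96 genes were tested. None of the 96 (0 genes) had an adjusted p under 0.05 by edgeR's quasi-likelihood test with Benjamini-Hochberg adjustment, where 0.00834% of all genes did. An adjusted p under 0.1 was found for 29 genes higher and 2 lower in Bahd1-KO (32.3% of the 96, against 19.5% of all genes tested), and an unadjusted p under 0.05 for 36 higher and 12 lower (50.0%, against 31.8%). Of the expressed genes, 40.8% had an unadjusted p under 0.05. The median log2 fold change was 0.15 over the 96 genes and -0.06 over all genes tested. With the offset these medians were -0.01 and -0.06, and 47 of the 96 were higher and 49 lower.

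Peptide clearance genes had the highest median log2 fold change of the 6 lists, 0.75 over 12 genes, with 8 higher and 2 lower at an unadjusted p under 0.05 (83.3%, where 31.8% of all genes passed in either direction). With the offset 4 were higher and 3 lower, where 21.4% of all genes passed. Apoe, the lipid carrier made mainly by astrocytes, was at 331, 181 and 203 CPM in Bahd1-WT and at 482, 2106 and 649 CPM in Bahd1-KO, a log2 fold change of 2.18 (standard error 0.53, edgeR adjusted p = 0.0634). Ttr, the thyroxine carrier of the choroid plexus, was 1.29 higher on the log2 scale, and Ece1, a peptidase that degrades amyloid-β, was 1.04 higher with overlapping samples. With the offset these were 0.67, 1.43 and 0.32, and the list median was 0.16. App adaptors had a median of 0.40 over 16 genes, with 8 higher and 1 lower at an unadjusted p under 0.05 (56.2%, against 31.8% of all genes), and with 5 higher and 1 lower with the offset, where 21.4% of all genes passed. Apbb1, an adaptor that binds the tail of App, had a log2 fold change of 1.91, Apba2, another such adaptor, of 1.43 and Itm2c, a membrane protein that binds App, of 1.33. With the offset they were at 0.48, 0.55 and 0.29 and the median at 0.18.

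The list of other secretases had a median of 0.06 over 8 genes. Adam8, a metalloproteinase, was at 1.11 with overlapping samples, Aph1b at -0.55 and Bace2, the homologue of Bace1, at 0.43. With the offset they were at 0.37, -0.18 and 0.70, and the list median stayed at 0.06. The 15 secretase regulators had a median of -0.08, with 4 higher and 0 lower at an unadjusted p under 0.05 (26.7%, where 31.8% of all genes passed), and with 2 higher and 2 lower with the offset, where 21.4% of all genes passed. Tspan17, Tspan33 and Tspan14, tetraspanins that escort Adam10 to the cell surface, had log2 fold changes of 1.09, 1.10 and 0.78 (edgeR adjusted p = 0.0634, 0.0634 and 0.0723). With the offset Tspan17 turned to -0.26, while Tspan33 was at 1.45 and Tspan14 at 0.61. Of the other tetraspanins of this kind in the list, Tspan5 was at -0.14 with overlapping samples and at -0.10 with the offset, and Tspan15 at 0.35 and 0.18. Tspan10 was at most at 0.063 CPM in any library.

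Sorting and trafficking genes had a median of 0.04 over 21 genes, and -0.04 with the offset. Gga1, an adaptor that sorts Bace1, had a log2 fold change of 2.36, Lrp1, an endocytic receptor for Apoe and App, of 1.82 and Bin1, a membrane-bending protein, of 1.17. The 24 other substrates had a median of 0.10, and -0.07 with the offset. Cx3cl1, a membrane-bound chemokine of neurons that Adam10 sheds, was at 1.45, Sez6l2 at 1.62 and Sez6, a substrate of Bace1, at 1.34. With the offset Gga1 was at 0.59, Lrp1 at 0.70, Bin1 at 0.37, Cx3cl1 at 0.44, Sez6l2 at 0.38 and Sez6 at 0.04. Without Bahd1-KO replicate 2 and without the offset, Gga1 was at 1.41, Bin1 at 0.78, Apoe at 1.25, Ttr at 0.83, Tspan33 at 0.72 and Aph1b at -0.35. Each of these log2 values moved by a factor of over 1.5. Apbb1 at 1.36 and Lrp1 at 1.34 moved by a smaller factor, but further on the log2 scale than Bin1, Tspan33 and Aph1b. With the offset and without this replicate Tspan33 was at 0.90, Apoe at 0.41, Gga1 at 0.39, Tspan17 at -0.11, Aph1b at -0.09 and Sez6 at 0.09. These also moved by a factor of over 1.5, although for Sez6 and Aph1b, with values near 0, the shift itself was small. Ttr fell from 1.43 to 0.96, a larger shift by a smaller factor.

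**Figure D5:**
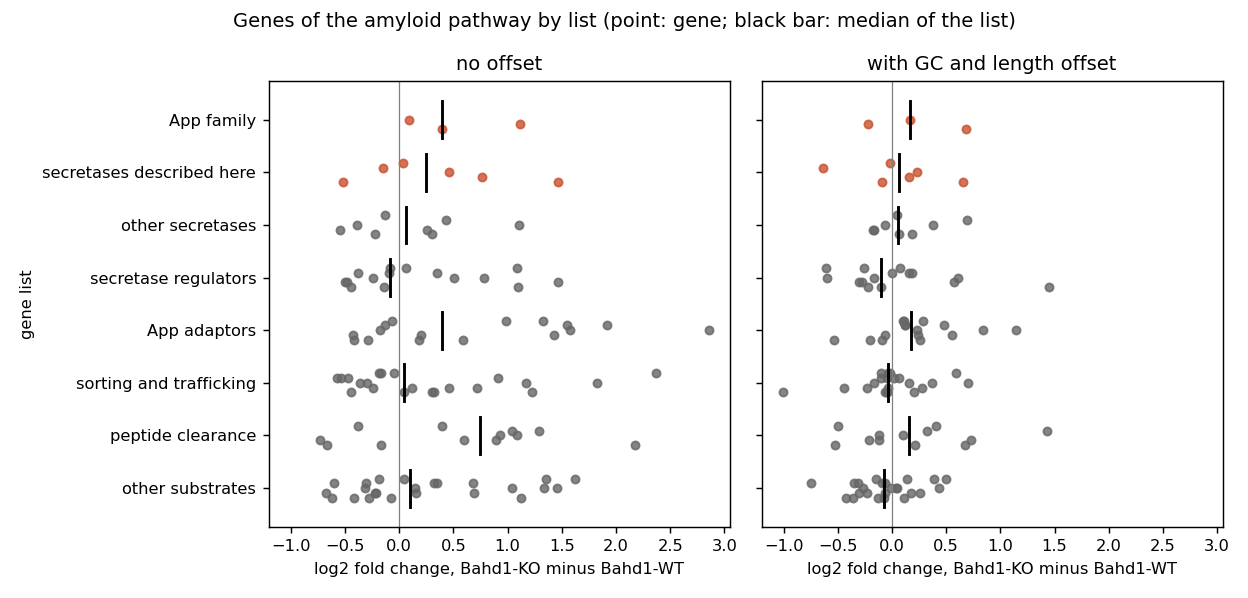
Log2 fold change, Bahd1-KO minus Bahd1-WT (horizontal axis), of the genes of 8 lists (vertical axis) without an offset (left) and with the GC and length offset (right). Each point is a gene, red for the 9 genes described and grey for the 96 others, and black bars are list medians. The median of peptide clearance genes is at 0.75 on the left and 0.16 on the right.

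Brain cell markers were present in every library, and those of neurons, astrocytes, oligodendrocytes and microglia were all above 3 counts. In bulk tissue, fewer cells of a type and less RNA per cell cannot be told apart. The summed level of 4 neuron markers was 5638 to 6899 CPM in Bahd1-WT and 4849 to 6313 CPM in Bahd1-KO, with log2 fold changes of -0.17 for Snap25 and -0.37 for Syt1, which make up most of the sum, and of 0.78 for Rbfox3 and 0.11 for Stmn2. The 4 astrocyte markers summed to 4013 to 4388 CPM and 2491 to 3906 CPM, with Slc1a2, the most abundant, at -0.49, Aqp4 at -0.47, Gfap at 0.67 and Aldh1l1 at 1.03, so that members of these lists differed in direction. Of the oligodendrocyte markers, Mag and Mbp had log2 fold changes of 1.66 and 1.17, whereas Mog had -0.08. The 4 choroid plexus markers summed to 49.4 to 59.0 CPM in Bahd1-WT and 43.5 to 46.4 CPM in Bahd1-KO, beside the higher Ttr. Kl, which makes up most of this sum, was at -0.40, Otx2 at -0.22, Kcne2 at -0.06 and Folr1 at 0.66. Haemoglobin genes, which mark blood, summed to 7.76 to 12.8 CPM and 12.5 to 89.1 CPM, with the highest value in Bahd1-KO replicate 2. The 4 lung markers summed to 2.15 to 100.4 CPM in Bahd1-WT and 0.44 to 1.396 CPM in Bahd1-KO, and the 4 pituitary hormone genes to 0.18 to 18.7 CPM and 0.092 to 42.2 CPM, so that traces of other tissues differed between the libraries. The part of cell composition, blood or other tissue in the differences of the 9 genes was not tested.

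The genes whose log2 CPM ran most like App over the 6 samples were Nectin4, C130021I20Rik and Pex26, with Pearson's r of 0.999, 0.998 and 0.996. For Psen2 they were Shmt2, Cc2d1a and Lims2, each with r of 1.00 after rounding. Such values were common, since 3131 of the 13258 expressed genes compared had r over 0.9 with App and 3907 with Psen2.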

How the data were processed

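The data were gene counts from a brain hemisphere of 3 Bahd1-WT and 3 Bahd1-KO adult mice, grouped and numbered by the sample titles. The authors deposited raw counts as whole numbers, made per the methods from reads trimmed with cutadapt, aligned to GRCm38 and counted by strand over exons with featureCounts. The sources differ in the aligner (STAR or Tophat2) and in the read layout. The table is a single column per mouse, with 0 columns of other samples. Replicates measure the spread between mice.

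Genes with at least 10 counts over the 6 samples were tested with edgeR (4.0.16, R 4.3.3), TMM factors, a quasi-likelihood test on genotype and Benjamini-Hochberg adjustment over 23975 genes. The 9 genes, the lists and the tests were chosen with earlier results of these data known. CPM used TMM-scaled library sizes and FPKM divided them by length in kilobases. The offset was a natural spline per library on GC content of the longest transcript (5 degrees of freedom) and log merged exon length (3), fitted on 13251 genes with a mean log2 CPM above 1, using GENCODE annotation of GRCm38, which covered 23940 genes. Log2 ratios and shares were compared by a two-sided exact permutation test. All 9 genes were named. From each wider list the 3 genes with the lowest p were named, and for App and Psen2 the 3 genes with the highest Pearson r. Aph1c was added after its values were seen, and Tspan5, Tspan15 and Tspan10 were added as the other tetraspanins of the secretase regulators. Some of the genes in the lists are not reported here by name. Of 97 listed genes, 1 was not analysed here.

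Alternatives were DESeq2 (1.42.0) with and without its prior, other size factors, other filters, edgeR's likelihood-ratio test and robust shrinkage, the replicate block, the offset and leaving out each sample. Those based on the principal transcript, DESeq2 without prior with the offset, and the ratios with the offset and named list genes without Bahd1-KO replicate 2 were chosen after seeing the data. Depth was 42297150 to 93557948 counts, and the floor of 3 counts covers counting error only. The scripts were tested on simulated counts.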

Additional observations from a re-analysis of the deposited data

How the results depend on the processing

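The number of the 9 genes with an adjusted p under 0.05 was 0 in edgeR's quasi-likelihood test. It was 0 as well with DESeq2's size factors, upper-quartile factors, filterByExpr, robust shrinkage, the offset by either transcript, and without any sample other than Bahd1-KO replicate 1. It was 3, all higher, with total counts (where 9.40% of all genes were called), with DESeq2 with or without the prior (21.3% of genes with an adjusted p) and with the likelihood-ratio test (17.0%), and 2, both higher, with a filter of at least 1 count (11.0%). Among the 96 other genes these settings called 16 higher (total counts), 29 higher and 2 lower (DESeq2), 26 higher and 2 lower (likelihood-ratio test) and 25 higher and 2 lower (filter). DESeq2 with the offset, with or without the prior, called 3 of the 9 (2 higher, 1 lower) and 16 others higher and 5 lower, where with the prior 12.2% of the genes with an adjusted p were called, 6.96% higher and 5.20% lower. Over the leave-one-out fits the counts ran from 0 to 6 of the 9 (0 to 5 higher, 0 to 1 lower) and from 0 to 36 others higher and 0 to 9 lower. With the offset they ran from 0 to 3 of the 9 (0 to 2 higher, 0 to 1 lower) and from 0 to 16 others higher and 0 to 9 lower. Each upper value was that without Bahd1-KO replicate 1, where 30.0% of all genes were called, or 10.7% with the offset. The cause was not tested.

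Aplp1, at a log2 fold change of 1.11 without the offset, turned to -0.22 with it, -0.27 by the principal transcript, -0.21 with DESeq2's prior and -0.22 without the prior. Leaving out Bahd1-WT replicates 1, 2 and 3 in turn gave -0.27, -0.10 and -0.29 with the offset, and Bahd1-KO replicates 1, 2 and 3 gave -0.26, -0.16 and -0.23. Bace1 turned to -0.017 with the offset and to -0.016 and -0.017 in DESeq2 with and without the prior, but was at 0.092 with the offset by the principal transcript. It turned to -0.070, -0.024, -0.072 and -0.0070 with the offset and without Bahd1-WT replicate 1 or 3 or Bahd1-KO replicate 1 or 3. Without the offset Bace1 ran from -0.0047 to 0.065 as each sample was left out. With upper-quartile factors, which moved the median log2 fold change of all genes from -0.06 to -0.20, Bace1 was at -0.11 and Aplp2 at -0.047. By these factors App was at 0.25 and Aph1a at -0.28, and with total counts they were at 0.47 and -0.07. With the offset the App share was 9.33 points higher in Bahd1-KO and the log2 ratio of Aplp1 to App differed by -0.87, against 4.42 points and -0.55 by the principal transcript. The other genes kept their direction in these alternatives.

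The replicate numbers come from the sample titles, which name no pairing of the mice. The deviations of same-numbered samples had a mean correlation of -0.48 (-0.66 to -0.14). With 3 samples per genotype this value cannot show whether mice were paired. In the fit with the replicate block, 0 of the 9 were called at an adjusted p under 0.05, where 0.0292% of all genes were. The log2 fold changes in this fit were 1.03 for Aplp1 and 1.34 for Psen2 (edgeR adjusted p = 0.123 and 0.129). In the block with the offset App was at 0.66, Aplp1 at -0.21 and Bace1 at -0.017.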
